A study of Mus musculus with 25 samples.

Results

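Galanin (Gal) is a neuropeptide precursor gene, and Galr1, Galr2 and Galr3 encode the 3 known galanin receptors. The levels of these 4 genes were examined in the mammillary neuroepithelium of mouse embryos with and without an altered Lhx5 allele. The members were chosen by name, as transcript clusters (the probe sets of one gene on the array) that carried a single gene symbol. Of 18820 genes with such a cluster, the rule found 3 of the 4, with 1 cluster each for Gal, Galr1 and Galr2. Galr3 shared its only cluster with Gcat, an enzyme of threonine breakdown, so a signal from either gene cannot be told apart there and its values are given as Galr3 with Gcat. Gal was chosen with its difference between the genotypes already known, so that difference is a description and carries no test.

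The samples were 25 arrays of the mammillary neuroepithelium, the wall of the caudal hypothalamus that later gives rise to the mammillary body, at embryonic day E10.5. All embryos were C57BL/6 and untreated, and each array is labelled as a biological replicate. The mutant group (labelled Lhx5 KO, n = 13) was homozygous for the floxed allele, Lhx5 fl/fl, in which loxP sites flank exons that are still present, without recombination by Cre, and the neo cassette had been removed. It is thus a hypomorph and not a deletion. The wild-type group (WT, n = 12) carried no altered allele. Values are log2 expression values from robust multiarray averaging (RMA), in which a difference of 1 stands for a doubling.

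The mean of KO replicates 1 to 10 had been set equal to the mean of KO replicates 11 to 13 on practically every cluster (median absolute difference 1.33e-06, and 6.67e-07 for Gal). Unless an alternative is named, each KO minus WT difference therefore equals that of KO replicates 11 to 13 against the 12 WT arrays. Replicates 1 to 10 then added nothing to its direction. They did enter the values given with a marker list as a covariate. The fit held a term for KO replicates 1 to 10, and a standard error (SE) after ± comes from that fit. Calls with genotype alone are given beside it. Genotype alone counts replicates 1 to 10 as further evidence, so its errors are too small and its calls are no support. On simulated data it made 1740 false calls, against 6 with the term. Array medians lay between 4.64 and 4.76. Among defining genes of the tissue, the means in WT were 7.82 for Nkx2-1, 6.73 for Foxb1 and 8.24 for Sim1, all transcription factors of the hypothalamic or mammillary region. None of 6 Hox genes of the caudal neural tube had a WT mean above 3.66, and the mean level of that list lay between 3.14 and 3.39 on WT arrays. Lhx5 itself stood at 7.97 ± 0.22 (SD, n = 12) in WT and 7.92 ± 0.32 (SD, n = 13) in KO, which is no check of the labels, as this allele keeps its exons.

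Galanin is made as a longer precursor that is cut in the secretory pathway and stored in dense-core vesicles, from which it is released when neurons fire. Its receptors are coupled to G proteins. GALR1 and GALR3 act mainly through the Gi/o class, which lowers cyclic AMP and opens inwardly rectifying potassium channels, and GALR2 acts mainly through Gq/11, which activates phospholipase C. In the adult hypothalamus galanin is known for roles in feeding, hormone release and sleep, and many hypothalamic neurons store it beside another transmitter.

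The promoters are shown so that the gene whose level differed most here, Gal, can be read beside one of its receptors. They are stretches of 300 bases around the transcription start, mostly upstream of it, from RefSeq (GRCm38.p6), 5′ to 3′ on the strand of the gene. Entries were found for Gal (chr19:3414495-3414794, minus strand) and Galr2 (chr11:116280689-116280988, plus strand), and not for Galr1 or Galr3. Capitals mark TGACG, the half-site of the cyclic AMP response element.
Gal: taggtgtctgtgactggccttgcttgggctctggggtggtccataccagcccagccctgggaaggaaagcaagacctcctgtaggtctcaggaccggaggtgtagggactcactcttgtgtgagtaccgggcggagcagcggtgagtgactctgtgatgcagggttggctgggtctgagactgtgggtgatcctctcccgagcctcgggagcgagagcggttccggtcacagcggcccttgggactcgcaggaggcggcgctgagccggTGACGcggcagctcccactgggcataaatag
Galr2: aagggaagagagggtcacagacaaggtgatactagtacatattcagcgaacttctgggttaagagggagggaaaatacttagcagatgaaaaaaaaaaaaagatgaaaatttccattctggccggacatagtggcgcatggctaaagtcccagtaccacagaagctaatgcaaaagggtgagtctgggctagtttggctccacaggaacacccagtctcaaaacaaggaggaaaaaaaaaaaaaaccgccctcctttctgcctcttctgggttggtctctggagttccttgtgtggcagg
Of 3 short motifs searched on both strands, Gal held TGACG once, 20 bases past its start, and Galr2 held none. TAATTA, a core that many homeodomain proteins bind, and TGTTTA, a forkhead core, were in neither window. Over 32851 promoters of the same length, TGACG was present in 20.81%, TGTTTA in 13.44% and TAATTA in 5.291%, so a match to TGACG was common. A match is a run of letters and not a measured site.

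The level of Gal was higher in the mutant neuroepithelium. The 12 WT arrays ran from 3.48 through a median of 4.17 to 4.99. The 3 mutant arrays of replicates 11 to 13 stood at 4.94, 5.63 and 5.68. KO replicates 1 to 10 ran from 4.99 through a median of 5.39 to 6.01. Of replicates 11 to 13, 2 of 3 lay above every WT array and 3 of 3 above all but the highest one, WT replicate 10. The place of replicates 1 to 10 against WT was set by the shared mean and is not counted. WT replicate 10 (4.99) exceeded the lowest mutant array, KO replicate 11 (4.94), so the groups touched at a single WT array. For background, the fit called 7 of 28940 clusters in all (0.0242%, at an adjusted p below 0.05 in limma), 0.0138% as higher and 0.0104% as lower in KO. Nothing is read from that share for Gal, which was picked from this contrast.

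The mean level of Gal was 4.14 ± 0.38 (SD, n = 12) in WT and 5.42 ± 0.32 (SD, n = 13) in KO. The difference of 1.27 ± 0.22 (95% interval 0.83 to 1.72) stood for a 2.41-fold higher level (1.77 to 3.29). It stood at rank 5 of the 28940 clusters ordered by this difference, whose median was 0.0052. Gal was picked from this contrast, so the rank and the interval describe that choice and are no support for it. In the bulk tissue, more cells with Gal transcript and more transcript per cell cannot be told apart. The level of Gal also varied among WT embryos. Its WT SD was at the 94.7th percentile of 826 genes with a WT mean within 0.25 of its own, which had a median SD of 0.189. Left out in turn, no single array moved the difference below 1.14 or above 1.51. Leaving out any of KO replicates 1 to 10 could not move it, because the fit held a term for them. That range thus rests on KO replicates 11 to 13 and the WT arrays.

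**Figure D1:**
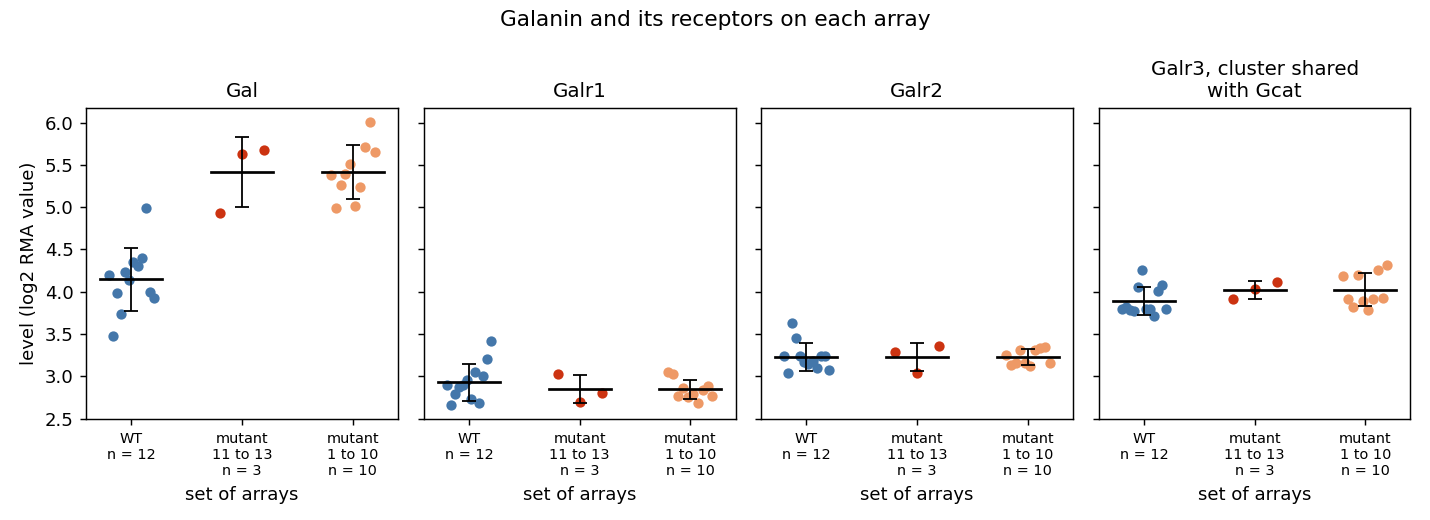
Gal, Galr1, Galr2 and the cluster shared by Galr3 and Gcat (y axis, log2 RMA value) in WT (n = 12), KO replicates 11 to 13 (n = 3) and KO replicates 1 to 10 (n = 10), with a point for each array, a horizontal line at the mean and error bars of 1 SD. For Gal, 2 of KO replicates 11 to 13 lie above every WT array, and the lowest (4.94) lies under WT replicate 10 (4.99). For the receptors KO replicates 11 to 13 overlap with WT. The place of replicates 1 to 10 against WT was set by the shared mean.

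The receptors did not pass the test. Galr1 ran from 2.66 through a median of 2.90 to 3.42 over the WT arrays, and KO replicates 11, 12 and 13 stood at 3.03, 2.70 and 2.81. All 3 lay within the WT range. KO replicates 1 to 10, placed by the shared mean, lay between 2.69 and 3.05. The difference was -0.09 ± 0.11, with a 95% interval from -0.32 to 0.15 (adjusted p = 0.846 in limma). An exact two-sided permutation test of the 3 against the 12 arrays, over 455 splits with a smallest possible p of 0.0022, gave p = 0.552.

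Galr2, the receptor that acts through phospholipase C, ran from 3.04 through 3.21 to 3.63 in WT. The 3 mutant arrays stood at 3.29, 3.04 and 3.36, and KO replicates 1 to 10 lay between 3.13 and 3.34. Of KO replicates 11 to 13, all but 1, the lowest at 3.04, lay within the WT range. The difference was -0.0028 ± 0.09 (95% interval -0.19 to 0.18, adjusted p = 0.996 in limma, exact permutation p = 0.987). Both receptors lay at the dim end of the array. The WT means of 990 olfactory receptor genes, which serve as a guide to that end in this tissue, spread from 2.33 to 3.36 between their 5th and 95th percentiles, and the WT means of Galr1 (2.93) and Galr2 (3.23) fell in this span. Probes differ in brightness, so these values order no transcripts, and a fold there does not bound the change of the transcript.

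The cluster of Galr3 with Gcat ran from 3.71 through 3.80 to 4.26 in WT. KO replicates 11, 12 and 13 stood at 3.91, 4.03 and 4.12, all within the WT range. KO replicates 1 to 10, placed by the shared mean, lay between 3.78 and 4.31. The difference was 0.13 ± 0.11 (95% interval -0.09 to 0.36, adjusted p = 0.729 in limma, exact permutation p = 0.270).

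Galanin and receptor levels were next set against each other within each set of arrays, where no difference between genotypes enters. Over the 12 WT arrays, Pearson's r of Gal with Galr1 was 0.05 (permutation p = 0.864, rho = 0.05, p = 0.886) and with Galr2 -0.07 (permutation p = 0.810, rho = -0.01, p = 0.992). Over KO replicates 1 to 10, r was -0.08 with Galr1 (permutation p = 0.815, rho = 0.04, p = 0.920). With Galr2 it was 0.58 (permutation p = 0.0787) and rho was 0.67 (p = 0.0386). Adjusted over the 4 relations, none passed (Benjamini-Hochberg p = 0.315 for r and 0.154 for rho of Galr2, permutation test). The Galr2 value rested on 2 arrays, KO replicates 8 and 9, without which r was 0.22. Without the 2 farthest arrays of each, r was 0.46 for Galr1 in WT, 0.56 for Galr1 in KO replicates 1 to 10 and 0.55 for Galr2 in WT, so the values near 0 rested on 2 arrays as well.

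Relatives of galanin could be measured for 2 of 4 genes of a fixed list. Galp, the galanin-like peptide, differed by -0.06 ± 0.08 (adjusted p = 0.856 in limma), with WT arrays from 3.34 to 3.71 and KO replicates 11 to 13 from 3.40 to 3.57. Kiss1r, the kisspeptin receptor, which is related in sequence to the galanin receptors, differed by -0.12 ± 0.12 (adjusted p = 0.788 in limma), with WT arrays from 3.20 to 3.90 and KO replicates 11 to 13 from 3.27 to 3.54. Both sets of mutant values lay within the WT range. Spx, the spexin precursor, had no cluster under its name, and Kiss1 shared its cluster with Golt1a.

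The partners through which the receptors signal were present on the array for 22 of 23 listed genes, and 0 passed in either direction with the term, against 0.0242% of all clusters. At an unadjusted p below 0.05, 1 of 22 passed, against 10.3% of all clusters. Their median difference was -0.02, with a range from -0.26 to 0.23, while the median over all clusters was 0.0052. With genotype as the only term, 3 were called higher and 2 lower (16.7% of all clusters were called in that fit, 9.68% higher and 6.99% lower). The Gi subunit Gnai1 had the smallest p (0.23 ± 0.09, from 7.82 in WT to 8.05 in KO, adjusted p = 0.365 in limma). Kcnj9, a subunit of the potassium channels opened by Gi/o, differed by 0.16 ± 0.08 (adjusted p = 0.509). Another channel subunit, Kcnj3, stood lower (-0.26 ± 0.15, adjusted p = 0.559), as did Gnao1, the Go subunit of neurons (-0.26 ± 0.19, adjusted p = 0.687). Of the other listed channel subunits, named after their values were seen, Kcnj5 differed by 0.16 ± 0.13 and Kcnj6 by -0.10 ± 0.05. The genes of the GALR2 route, named here after their values were seen, were the G protein subunits Gnaq (-0.04 ± 0.07) and Gna11 (0.06 ± 0.05) and the phospholipases C Plcb1 (-0.15 ± 0.09), Plcb2 (0.13 ± 0.12), Plcb3 (0.19 ± 0.10) and Plcb4 (-0.08 ± 0.08). Of these only Plcb3 was called with genotype alone (adjusted p = 0.0399 in limma, and 0.550 with the term).

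The proteins that cut and store peptides were measured for 15 of 16 listed genes. With the term 0 passed, and 2 of 15 had an unadjusted p below 0.05 (10.3% of all clusters). The median difference was -0.13, from -0.34 to 0.14, and 5 of 15 differences were positive (51.77% of all clusters). Pam, the enzyme that amidates the end of galanin and other peptides, stood lower by 0.30 (-0.30 ± 0.12, from 7.61 in WT to 7.32 in KO, adjusted p = 0.362 in limma). Scg5, a chaperone of the convertase Pcsk2, differed by -0.25 ± 0.12 (adjusted p = 0.482). The largest difference was that of Syt4, a synaptotagmin of dense-core vesicles, with a wide error (-0.34 ± 0.36, adjusted p = 0.794). With genotype alone 2 of 15, Pam and Scg5, were called lower (6.99% of all clusters). In the exact test of 3 against 12 arrays, Pam gave p = 0.0264 and Scg5 p = 0.0549 before any adjustment.

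Galanin was also set among other neuropeptide precursors, of which 24 of 28 listed genes were measured. None passed with the term, and 1 of 24 had an unadjusted p below 0.05 (10.3% of all clusters). The median difference was 0.03, from -0.56 to 0.20. The highest lay under the 1.27 of Gal, which was picked for its difference, so this gap is no test. The largest in size was Adcyap1, the precursor of PACAP, at -0.56 ± 0.24 (from 5.04 in WT to 4.48 in KO, adjusted p = 0.413 in limma, exact permutation p = 0.0725). Cck, the cholecystokinin precursor, differed by -0.35 ± 0.30 (adjusted p = 0.739) and Oxt, the oxytocin precursor, by 0.17 ± 0.10 (adjusted p = 0.562). With genotype alone 2 of 24 were called, Adcyap1 lower and Oxt higher (16.7% of all clusters). Precursors with bright clusters varied widely between arrays, as with Sst (6.42 in WT and 6.51 in KO, SE of the difference 0.53) and Penk (6.28 and 6.07, SE 0.71), both named after their values were seen.

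**Figure D2:**
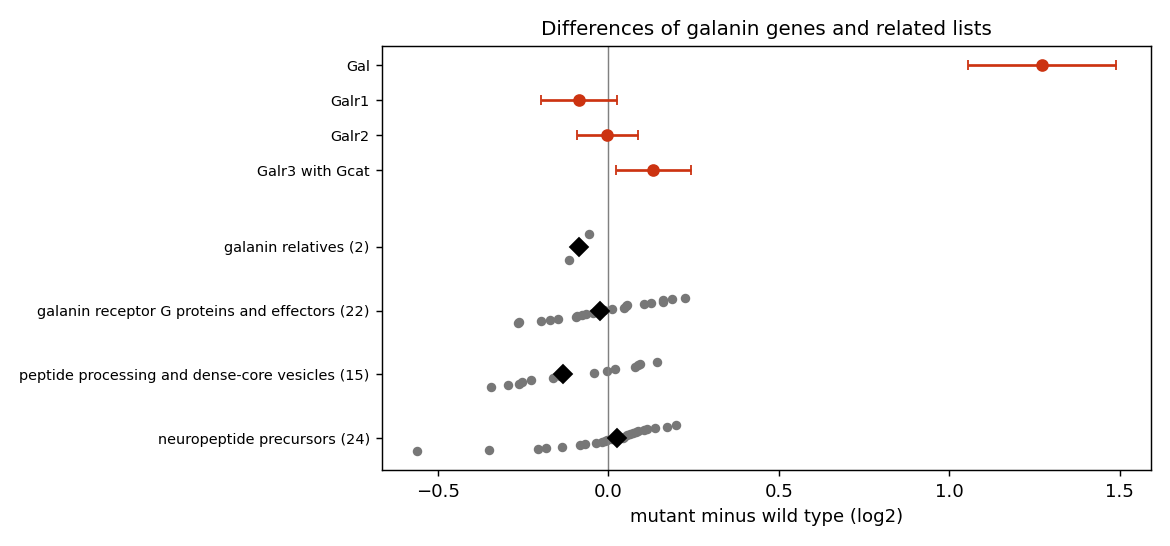
Difference between KO and WT (x axis, log2) for Gal and the receptors (red, with SE bars) and for each measured gene of 4 lists (grey, with a black diamond at the median), namely relatives of galanin (2 genes), receptor G proteins and effectors (22), peptide processing and dense-core vesicles (15) and other neuropeptide precursors (24). All listed genes lie between -0.56 and 0.23, and Gal lies at 1.27.

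The genes beside Gal on chromosome 19 were asked whether the difference ran along the chromosome. In all 9 neighbours were measured, 4 on one side and 5 on the other, and 0 of 9 passed with the term in limma. Of the 9, 1 (Chka) had an unadjusted p below 0.05 (10.3% of all clusters). Their differences ran from -0.28 to 0.10. The gene nearest on one side, Tesmin, a metallothionein-like gene of the testis, differed by -0.03 ± 0.08, and the nearest on the other, Ppp6r3, a regulatory subunit of protein phosphatase 6, by -0.07 ± 0.06. The largest difference was that of Chka, a choline kinase, which stood lower and not higher (-0.28 ± 0.07, adjusted p = 0.138 in limma, and 1.18e-04 with genotype alone). The others were Ighmbp2 (0.10), Mrpl21 (0.04), Cpt1a (-0.14), Lrp5 (0.08), 1810055G02Rik (0.06) and Kmt5b (-0.12).

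**Figure D3:**
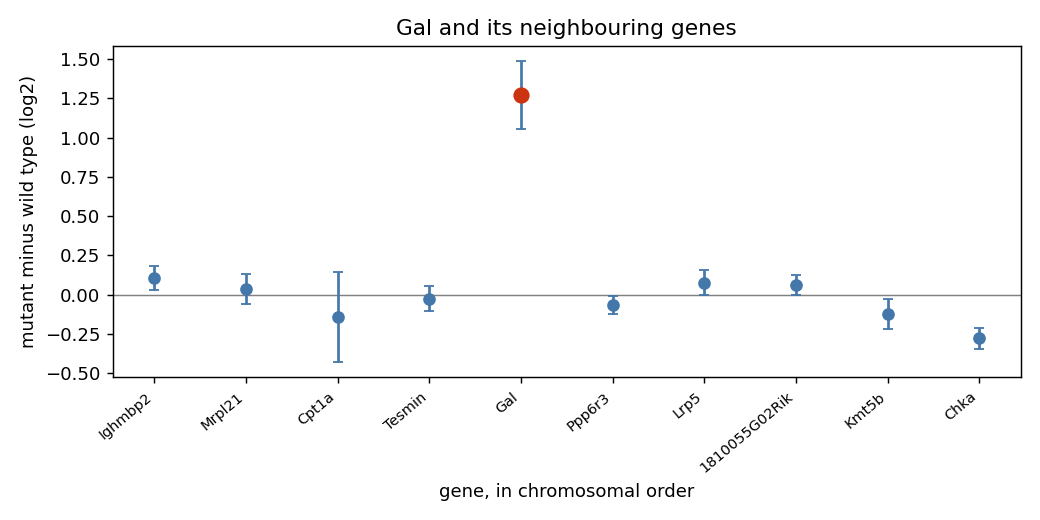
Difference between KO and WT (y axis, log2, with SE bars) of Gal and the 9 measured genes nearest to it, in their order along the chromosome (x axis). Gal stands at 1.27 and each neighbour between -0.28 and 0.10.

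Markers of other tissues that the dissection could hold were measured beside Gal. The list with the highest r with Gal over WT arrays was that of the ventral midbrain floor plate, the midline tissue just caudal to the mammillary region. Of its 7 measured genes (of 8), 6 had a positive difference (51.77% of all clusters) and the median was 0.47, from -0.16 to 0.98. With the term 0 passed in limma, 5 of 7 had an unadjusted p below 0.05 (10.3% of all clusters), and with genotype alone 6 of 7 were called higher (9.68% of all clusters). Corin, a protease of the floor plate, differed by 0.98 ± 0.33 (adjusted p = 0.274 in limma). The transcription factor Ferd3l differed by 0.92 ± 0.32 (adjusted p = 0.275) and Wnt5a, a secreted Wnt ligand, by 0.59 ± 0.22 (adjusted p = 0.323). The authors had already reported these genes as higher in KO on these arrays. Lists were chosen with such results known, so the shares called or positive in this list are no support. The mean level of the list ran from 6.58 through 6.96 to 7.87 over the WT arrays, from 7.29 to 7.63 over KO replicates 11 to 13, and from 6.90 to 7.73 over replicates 1 to 10. The highest value on any array belonged to WT replicate 10, the WT array with the highest Gal.

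Within WT, r of Gal with the mean level of the floor plate list was 0.80 (permutation p = 0.00346, Benjamini-Hochberg p = 0.0900 over 26 relations, n = 12), and rho was 0.50 (permutation p = 0.0980, adjusted p = 0.588). Without the 2 farthest arrays, WT replicates 2 and 10, r was 0.30 (permutation p = 0.403), so the relation rested on those arrays. Over KO replicates 1 to 10, r was 0.45 (permutation p = 0.192, adjusted p = 0.625, n = 10) and rho 0.20 (permutation p = 0.584, adjusted p = 0.894). Without their 2 farthest arrays r was 0.35. With the list's mean level as a covariate, chosen after the data were seen, the difference in Gal was 0.85 ± 0.19 against 1.27 ± 0.22 without it.

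Of the neural progenitor list, 8 of 8 genes were measured, among them Sox1 and Sox2, and 0 passed with the term in limma. In that fit 1 of 8 had an unadjusted p below 0.05 (10.3% of all clusters). With genotype alone 2 were called lower (6.99% of all clusters). The median difference was -0.12, and 1 of 8 differences was positive (51.77% of all clusters). Its mean level lay between 9.63 and 10.07 on WT arrays and between 9.51 and 9.81 on KO replicates 11 to 13. Over KO replicates 1 to 10, r with Gal was -0.70 (permutation p = 0.0243, adjusted p = 0.315), rho was -0.65 (permutation p = 0.0491, adjusted p = 0.588) and r without the 2 farthest arrays was -0.56. Over WT arrays r was -0.38 (permutation p = 0.229, adjusted p = 0.663) and rho -0.43 (permutation p = 0.161, adjusted p = 0.597). With this list as the covariate the difference in Gal was 1.12 ± 0.20. No relation of the 26 with 13 marker lists passed adjustment, and before it r had a permutation p below 0.05 for 2, the floor plate list in WT and the progenitor list in KO replicates 1 to 10. Differences were mostly positive in mesenchyme (9 of 9, median 0.16), endothelium (7 of 7, median 0.12), surface ectoderm (7 of 8, median 0.19) and erythroid cells (7 of 7, median 0.36). Young neurons had 0 of 7 positive (median -0.19). Of all clusters, 51.77% were positive. The signs within a list rest on the same KO replicates 11 to 13 and are not independent. The part of these tissues in the level of Gal was not tested. Among the hypothalamic markers themselves 9 of 9 were measured, with a median of -0.09 and 3 of 9 positive (51.77% of all clusters). Otp differed by -1.28 ± 0.55 (adjusted p = 0.405 in limma) and Rax by -1.27 ± 0.39 (adjusted p = 0.242). These differences were about as large in size as that of Gal. Otp and Rax were named after their values were seen, and the authors had already reported them as lower in KO. The 3 positive differences were those of Sim1 (0.33 ± 0.21), Shh (0.19 ± 0.17) and Lhx1 (0.10 ± 0.45). With the term 0 of the 9 passed, and 2 had an unadjusted p below 0.05 (10.3% of all clusters). Both were called lower with genotype alone (6.99% of all clusters).

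**Figure D4:**
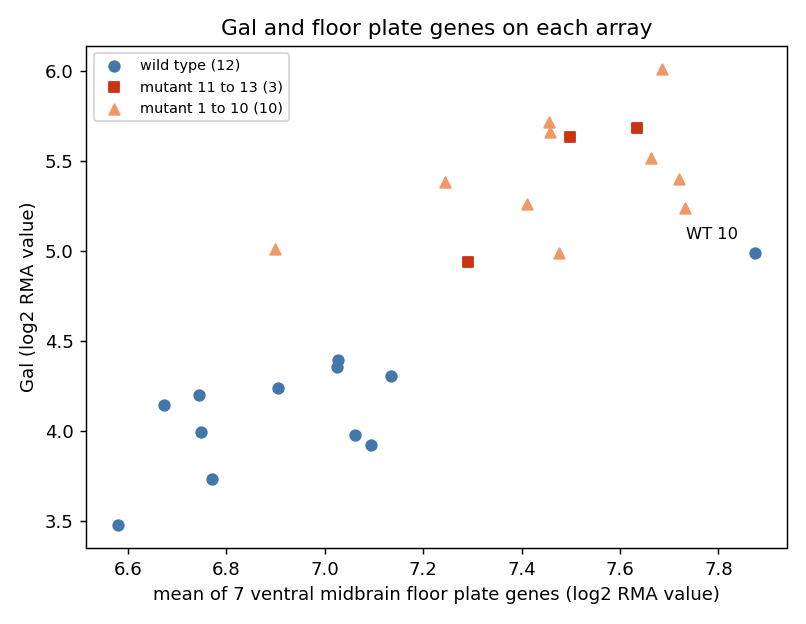
Gal (y axis, log2 RMA value), with a point for each of the 25 arrays, against the mean level of the 7 measured genes of the ventral midbrain floor plate list (x axis, log2 RMA value), with circles for WT, squares for KO replicates 11 to 13 and triangles for KO replicates 1 to 10. WT replicate 10 is highest among WT for Gal (4.99) and highest of all arrays for the floor plate list (7.87).

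The genes whose level went most closely with Gal were ranked by Pearson's r over the 12 WT arrays, among 9405 genes with a mean level of at least 5.475. These are the ends of a long ranking over few arrays, so they are given without a test. The highest was Pxylp1, a phosphatase of proteoglycan synthesis (0.95), followed by Abi2 (0.86), Tsc22d4 (0.85), the forkhead factor Foxa2 (0.84), Pcx (0.84), the Notch target Hey1 (0.84), Wnt5a (0.84), Dok5 (0.84), the protocadherin Pcdh8 (0.83) and Zbtb42 (0.82). Foxa2 and Wnt5a are also members of the floor plate list. Without WT replicate 10 these 10 values lay between 0.65 and 0.89.

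KO replicates 1 to 10 took no part in the ranking. There 8 of the 10 genes had r of the same sign, where 53.42% of all ranked genes did, and their median r was 0.26. The values ran from -0.20 for Pxylp1, the closest in WT, to 0.71 for Hey1, with Foxa2 next at 0.56 and the remaining 8 at 0.33 or below. At the other end lay Snx33, Uvrag, Snx27, Pot1b, Zfp53, Ppp4r3a, Slf1, Eif5a2, Prdm10 and Tedc2, with r between -0.88 and -0.77 in WT. In KO replicates 1 to 10 their median r was -0.14, and 6 of 10 had the same sign. 

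The differences between genotypes of these genes were small beside that of Gal, which was picked for its difference, so this gap is no test. Of the 10 highest, 8 had a positive difference with a median of 0.25, and of the 10 lowest, 8 had a negative one with a median of -0.08. Of all clusters, 51.77% had a positive difference. With the term 0 of the 20 passed in limma (unadjusted p below 0.05 in 2 at each end, against 10.3% of all clusters), and with genotype alone 4 of the 10 highest and 2 of the 10 lowest did (16.7% of all clusters). Wnt5a (0.59 ± 0.22), Dok5, an adaptor of receptor tyrosine kinases (0.52 ± 0.21), and Pcdh8 (0.42 ± 0.30) differed most.

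A ranking over the deviations of all 25 arrays from their own set mean gave other names, with only Hey1 and Foxa2 among both sets of highest genes. Hey1 (0.74), Foxa2 (0.73) and Foxa1, the second forkhead factor of the floor plate (0.72), were among its highest. Its lowest were Pax6 (-0.74), Nr2e1 (-0.74) and Sox1 (-0.72), transcription factors of neural progenitors, and Olig2 (-0.68) was also among them. For Pax6, r was -0.71 in WT and -0.91 in KO replicates 1 to 10, both of which entered this ranking. All 10 of these lowest genes had a negative difference between KO and WT, with a median of -0.40. Of all clusters, 51.77% had a positive one. Among the 10 were Sox1 (-0.71 ± 0.32, adjusted p = 0.442 in limma) and Olig2 (-1.02 ± 0.40, adjusted p = 0.350). With the term 0 passed, and 3 of 10 had an unadjusted p below 0.05, against 10.3% of all clusters.

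**Figure D5:**
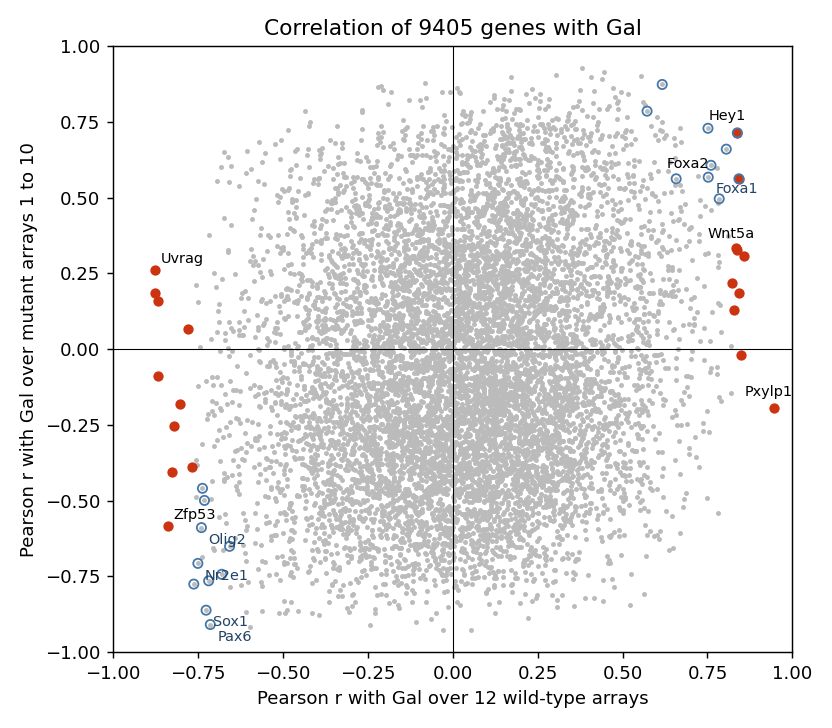
Pearson's r with Gal over KO replicates 1 to 10 (y axis) against that over the 12 WT arrays (x axis), for 9405 genes in grey, the 20 ranked over WT as filled red points and the 20 ranked over all 25 arrays as blue rings. The red points spread from -0.58 to 0.71 on the y axis; the rings were chosen with both axes and lie at both ends by that choice.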

How the data were processed

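The platform was the Affymetrix Mouse Gene 1.1 ST array, with total RNA of 1 dissection on each of 25 arrays. The authors deposited log2 values made by RMA, and their processing notes list R 2.7.0, affy and Affymetrix Expression Console 1.0. The 14 cells above 14, outside the range of RMA values, were set missing (12 in tested clusters). Of 35556 probe sets, 6616 unannotated ones with low identifiers were left out, which left 28940 clusters, 21218 with a single symbol, 1881 with several and 5841 with none. By gene number, 21185 matched RefSeq, and the brightest cluster stood for each of 18820 genes. No depth applies to arrays, and their number limits the precision.

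The fit was made with limma 3.58.1 under R 4.3.3, with genotype and a term for KO replicates 1 to 10, with Benjamini-Hochberg adjustment over all 28940 clusters and a threshold of 0.05, two-sided. Exact tests used the 15 arrays of KO replicates 11 to 13 and WT. Correlations used 100000 permutations. Members and lists were chosen with earlier results of these data known. Genes were named as the members, the relatives, from each other pathway list the 2 with the smallest p and the 2 with the largest difference, up to 5 measured neighbours on either side of Gal, the 10 genes at each end of the WT ranking, and Lhx5. Further names were chosen after their values were seen. The fit was tested on simulated data of 28940 clusters in which the 2 KO means were set equal. With the term it made 6 false calls, and genotype alone made 1740. Replicate numbers did not pair KO and WT arrays: after group means were removed, r for 12 numbers ran from -0.33 to 0.43, above 0.1 for 4, and 0 arrays correlated best with their own number. Alternatives were genotype alone, the 15 arrays, repeated quantile normalization, centring, limma-trend, array weights, a filter on dim clusters, embryo sex, the replicate block, restored cells, the mean of a gene's clusters, each array left out, and the 2 marker lists as covariates. Python 3.11.15 with matplotlib 3.10.9 drew the figures.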

Additional observations from a re-analysis of the deposited data

How the results depend on the processing

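The difference in Gal lay between 0.85 and 1.32 under 14 alternatives and between 1.14 and 1.51 with each of 25 arrays left out. Leaving out any of KO replicates 1 to 10 could not move it from 1.27, as the term takes up those arrays. Nor could genotype alone, the 15 arrays, limma-trend, restored cells, the filter on dim clusters or the mean of a gene's clusters. These settings are thus no check on its size. With embryo sex as a covariate it was 1.27 as well, which is no check either. High Xist was seen on 8 of 12 WT arrays and 2 of 3 of KO replicates 11 to 13. That is the same share, so the covariate could not move the difference. The value of 0.85 came with the floor plate list as a covariate, and the cause was not tested. The Galr2 difference turned to 0.007 with the progenitor list and ran from -0.0693 to 0.0926 with single arrays left out, whereas Galr1 ran from -0.18 to -0.01 and Galr3 with Gcat from 0.08 to 0.19 there. With genotype alone 5 signalling, 2 processing and 2 precursor genes were called, and 4825 clusters in all. With the replicate block and genotype alone these were 2, 1, 1 and 3637. With the block and the term 0 clusters were called, and Gal differed by 1.32. In that last setting Galr1 differed by -0.45 ± 0.15 (adjusted p = 0.445 in limma), outside its range with single arrays left out. Clusters called in all were 1 after repeated quantile normalization, 12 after centring, 4 without dim clusters, 30 with array weights, 0 with the floor plate list, 2 with the progenitor list and 0 to 26 with single arrays left out, where list counts stayed at 0. After centring, r of Gal became -0.0114 for hypothalamic genes in KO replicates 1 to 10 and -0.00033 for macrophages in WT. Without the 2 farthest arrays, r became 0.56 for Galr1 in KO replicates 1 to 10, 0.55 for Galr2 in WT, 0.59 for hypothalamic genes in WT, 0.0390 in WT and -0.0589 in KO replicates 1 to 10 for cranial ganglia, 0.23 for telencephalon in WT, and 0.19 in WT and 0.17 in KO replicates 1 to 10 for Hox genes. Among those that kept their sign, the relations in KO replicates 1 to 10 moved from 0.10 to 0.83 for macrophages (permutation p = 0.0127), from 0.50 to 0.87 for surface ectoderm (permutation p = 0.00347) and from 0.61 to 0.13 for pituitary placode, with p-values before adjustment. Of the 20 genes most and least like Gal, 7 were shared with a Spearman ranking, 2 with the ranking over 25 arrays and 13 with a ranking without the level filter. The dim receptor clusters limit what a difference there can show.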
